A study of Mus musculus with 12 samples.

Results

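The 10 genes described here encode the 4 Notch receptors (Notch1, Notch2, Notch3, and Notch4), 3 of their ligands (Jag1, Jag2, and Dll4), and 3 transcriptional targets of the pathway (Hes1, Hey1, and Heyl). They were taken by symbol from the 24421 genes in the count files, and all 10 were found. Tumor RNA of 6 mice was compared with RNA of their own non-tumoral livers, the mice being all aged over 18 months and fed a standard diet. Wild-type mice of the colony were C57BL/6J N. The p21+/Tert mice express telomerase reverse transcriptase (Tert) under the p21 promoter and gave T-HCC662 and T-HCC663 as well as T-HCC941 and T-HCA992. The p21+/TertCi mice express a catalytically inactive Tert from the same promoter and gave TCi-HCC981 and TCi-HCA984. In these names HCC stands for hepatocellular carcinoma and HCA for hepatocellular adenoma, but the histology of the study lists the tumor of the T-HCC663 mouse as an adenoma, against its name. Every mouse carried one of these alleles, so no wild-type liver was compared. By the exome results of the study, T-HCC662 and T-HCC663 carried an activating mutation of Ctnnb1, the gene of β-catenin. T-HCC941 carried a mutation of Egfr, TCi-HCC981 carried a mutation of Hras, and T-HCA992 and TCi-HCA984 carried neither. These last tumors carried other mutations, among them Ppp1r9a and PtprE in T-HCA992 and Ep300 in TCi-HCA984. Ep300 is one of the other pathway genes tested below. The Ctnnb1 class therefore held p21+/Tert tumors only, and the class with neither mutation held adenomas only, so that class, genotype, and diagnosis cannot be fully told apart. The non-tumoral liver of the T-HCC662 mouse carries another animal number in its label and was assigned by elimination, so counts of called genes are also given without this mouse. Each mouse is named by its tumor, and values by mouse are in a fixed order that starts with T-HCC662 and T-HCC663, goes on with T-HCC941 and T-HCA992, and ends with TCi-HCC981 and TCi-HCA984.

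Notch receptors are membrane proteins that are cut when a ligand on a neighboring cell binds them. The released intracellular part enters the nucleus, where it joins the DNA-binding protein Rbpj and coactivators and turns on genes of the Hes and Hey families, which encode repressors. In the liver, Jag1 and Notch2 are known for the formation of bile ducts. Notch1, Notch4, and Dll4 are known for their roles in blood vessels, and Notch3 and Heyl for their expression in the mural cells that surround vessels. The RNA came from bulk tissue, in which fewer cells of a type and less RNA per cell cannot be told apart.

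On the GRCm38 assembly (GENCODE vM21), the receptor genes are Notch1 (chromosome 2, 26457903 to 26516663, minus strand), Notch2 (chromosome 3, 98013527 to 98150361, plus strand), Notch3 (chromosome 17, 32120820 to 32166852, minus strand), and Notch4 (chromosome 17, 34564268 to 34588503, plus strand). The ligand genes are Jag1 (chromosome 2, 137081456 to 137116644, minus strand), Jag2 (chromosome 12, 112907819 to 112929776, minus strand), and Dll4 (chromosome 2, 119325784 to 119335962, plus strand). The target genes are Hes1 (chromosome 16, 30064384 to 30067796, plus strand), Hey1 (chromosome 3, 8663359 to 8667256, minus strand), and Heyl (chromosome 4, 123233556 to 123249875, plus strand). Exons of Notch1, Notch2, Notch3, and Dll4 overlap exons of at least 1 other annotated gene. The strand setting of the counting was not given in the sources used here, so it is not known how reads in the shared stretches were counted.

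Upstream windows of 7 of the 10 genes were matched by symbol in RefSeq (GRCm38.p6), the others being Hes1, Hey1, and Heyl. The windows of Notch4, Notch3, and Dll4 are shown because these genes were higher in the tumors and are known from vessel cells. They hold the 250 bases before the RefSeq start, shortened for Notch4 to the 223 bases before the GENCODE gene, at chr17:34564045-34564267 (Notch4, plus strand), chr17:32166891-32167140 (Notch3, minus strand), and chr2:119325534-119325783 (Dll4, plus strand). Capitals mark the ETS core AGGAAG and the Hes and Hey site CACGCG, on either strand.
Notch4: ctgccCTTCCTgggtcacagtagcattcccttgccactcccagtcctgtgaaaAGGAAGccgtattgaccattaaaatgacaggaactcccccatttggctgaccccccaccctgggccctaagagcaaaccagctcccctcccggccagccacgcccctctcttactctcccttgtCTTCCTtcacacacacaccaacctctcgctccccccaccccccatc
Notch3: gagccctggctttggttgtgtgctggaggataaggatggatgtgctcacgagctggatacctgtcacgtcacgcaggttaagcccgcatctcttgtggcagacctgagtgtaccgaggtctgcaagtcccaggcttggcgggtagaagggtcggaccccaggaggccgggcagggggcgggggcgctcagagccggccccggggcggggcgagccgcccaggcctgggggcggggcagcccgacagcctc
Dll4: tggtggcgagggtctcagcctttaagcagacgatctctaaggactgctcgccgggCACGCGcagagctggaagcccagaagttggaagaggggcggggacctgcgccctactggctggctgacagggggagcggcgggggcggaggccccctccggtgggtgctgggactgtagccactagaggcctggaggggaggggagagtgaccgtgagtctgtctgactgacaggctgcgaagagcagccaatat
ETS factors are transcription factors with general roles in endothelial cells. The Notch4 window held the letters AGGAAG 3 times, once on the sense strand and 2 times on the other, and was the only one of the 7 windows with a match. A match was present in 29.5% of the 32851 windows of 250 bases in the RefSeq table, and 3 or more matches in 1.22%. The site CACGCG was found in Dll4, Jag1, and Notch2, that is in 3 of 7 windows against 7.62% of all windows. The Rbpj site GTGGGAA was in 0 of 7 windows and in 5.42% of all windows, and the AP-1 site TGACTCA in 0 of 7 and in 4.46%. These 4 motifs were searched on both strands, none of them contains another, and they were chosen after the expression values were known, and a match is a description of the letters only.

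The libraries held between 14571716 and 26170661 counted reads. Counts were scaled with the TMM method of edgeR and are given as CPM, counts per 1000000 of the scaled library. At these depths 1 CPM rests on more than 10 reads. Levels of Tert and of Cdkn1a, the gene of p21, are also given. They could not check the genotype labels, because every mouse carried an allele under the p21 promoter. Tert was present in every library, at 10.7 to 17.5 CPM in livers and at 4.64 to 26.2 CPM in tumors, but the counts do not separate the endogenous gene from the knock-in alleles or Tert from TertCi. Tert was lower in the Ctnnb1-mutated than in the other tumors (-1.39, SE 0.34, edgeR quasi-likelihood test, adjusted p = 0.0254). Cdkn1a was at 1.64 to 51.8 CPM in livers and at 32.5 to 80.3 CPM in tumors, a difference that was not called (adjusted p = 0.111). Hepatocyte markers were abundant in every library, at a summed level of at least 16263 CPM over 8 genes.

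Of the 10 genes, 5 were higher in the 6 tumors than in the 6 livers, and none was lower. They were the receptors Notch3 and Notch4, the ligands Jag2 and Dll4, and the target Hey1. Across all genes 1476 of 13822 were called at an adjusted p under 0.05 (10.7%), of which 936 were higher in tumors (6.77%). All 10 fitted differences were above 0, with a median log2 fold change of 1.04, against 0.01 over all genes tested. Notch4 and Hey1 were higher in every tumor than in every liver, as were 392 of the 13822 genes (2.84%). Jag1, Notch4, and Hey1 were higher in the tumor in all 6 mice, as were 1478 genes (10.7%).

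**Figure D1:**
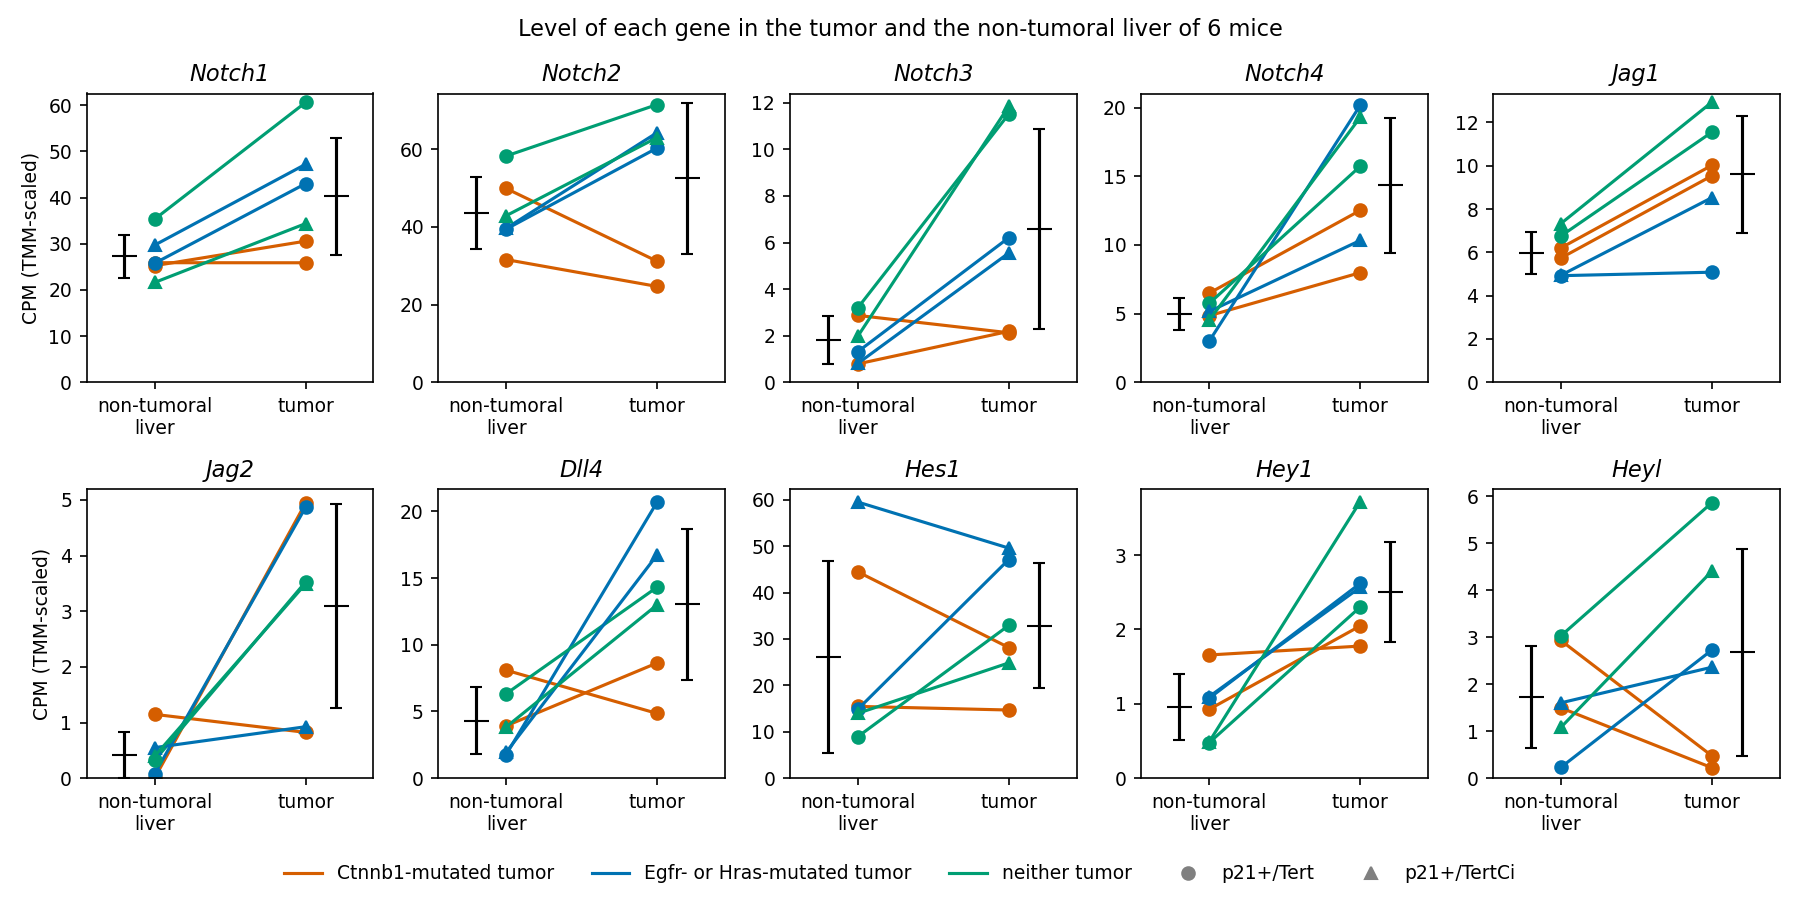
Level of each gene in CPM (vertical axis, linear from 0) in the non-tumoral liver and the tumor of 6 mice, with a line per mouse, the color giving the driver class of the tumor and the marker the genotype. Black bars give the mean and SD of 6 libraries. Notch4 is higher in the tumor in all 6 mice, whereas Heyl is lower in both Ctnnb1-mutated tumors and higher in the other 4.

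Notch4, a receptor known from endothelial cells, changed most firmly. Its level was 6.49, 4.84, 3.00, 5.74, 5.15, and 4.53 CPM in the livers in the order of the mice, and 12.5, 7.97, 20.2, 15.7, 10.3, and 19.3 CPM in their tumors. The groups did not overlap, and T-HCC941, whose own liver was the lowest, was the highest. The log2 fold change was 1.53 (SE 0.26, edgeR quasi-likelihood test, adjusted p = 0.00392, higher in 6 of 6 mice). In the fit with mouse as block it was 1.48 (adjusted p = 0.0151), and the call held with each of the 12 libraries left out in turn.

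Notch3, a receptor of mural cells, was at 0.784, 2.87, 1.31, 3.19, 0.802, and 1.97 CPM in the livers in the order of the mice, and at 2.18, 2.12, 6.20, 11.5, 5.55, and 11.8 CPM in their tumors. Both Ctnnb1-mutated tumors lay within the range of the livers and the other 4 tumors above it. The fitted log2 fold change was 1.85 (SE 0.52, edgeR quasi-likelihood test, adjusted p = 0.0390, higher in 5 of 6 mice). The call was lost in 9 of the 12 fits that left out a library, with an adjusted p of up to 0.0872, and held in the fit with mouse as block (adjusted p = 0.0310).

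Notch1 and Notch2, the receptors with the highest levels, were not called. Notch1 was at 25.9, 25.2, 25.8, 35.3, 29.7, and 21.6 CPM in the livers in the same order of mice, and at 25.9, 30.5, 43.0, 60.6, 47.2, and 34.3 CPM in the tumors. Notch1 was higher in the tumor in 5 of 6 mice, and T-HCC662 was level with its own liver. The log2 fold change of Notch1 was 0.57 (SE 0.21, edgeR quasi-likelihood test, adjusted p = 0.0960), and it passed at 0.53 once mouse was a block (adjusted p = 0.0396). Notch2 was at 31.6, 49.9, 39.4, 58.3, 39.6, and 42.9 CPM in the livers, and at 24.7, 31.2, 60.3, 71.5, 64.3, and 63.0 CPM in the tumors. Both Ctnnb1-mutated tumors were the lowest tumors and below their own livers, and the other 4 were above every liver. The fitted log2 fold change of Notch2 over all tumors was 0.27 (SE 0.26, adjusted p = 0.552).

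Of the ligands, Dll4, which is known from the tips of growing vessels, was at 3.92, 8.09, 1.77, 6.33, 1.94, and 3.84 CPM in the livers in the order of the mice, and at 8.64, 4.85, 20.7, 14.3, 16.7, and 13.0 CPM in their tumors. The groups overlapped through T-HCC663 alone, the only tumor below its own liver. The log2 fold change of Dll4 was 1.60 (SE 0.42, edgeR quasi-likelihood test, adjusted p = 0.0305, higher in 5 of 6 mice), and the call was lost in the fit with mouse as block (1.66, adjusted p = 0.0719) and in 6 of the 12 fits that left out a library.

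Jag2, a ligand of the Serrate type, was scarce in the livers, at 0, 1.15, 0.0769, 0.319, 0.549, and 0.393 CPM in the same order of mice, and reached 4.94, 0.823, 4.87, 3.53, 0.924, and 3.49 CPM in the tumors. T-HCC663 and TCi-HCC981 remained within the range of the livers. The liver of the T-HCC662 mouse had no Jag2 read. The fitted log2 fold change of Jag2 was 2.86 (SE 0.73, edgeR quasi-likelihood test, adjusted p = 0.0256, higher in 5 of 6 mice), and the call was lost in the fit with mouse as block (2.87, adjusted p = 0.0810) and in 3 of the 12 fits that left out a library.

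Jag1, the ligand known for bile duct formation, was at 6.20, 5.74, 4.92, 6.75, 4.94, and 7.33 CPM in the livers and at 10.0, 9.53, 5.08, 11.5, 8.52, and 12.9 CPM in the tumors. T-HCC941 was the only tumor within the range of the livers. The log2 fold change of Jag1 was 0.69 (SE 0.23, edgeR quasi-likelihood test, adjusted p = 0.0713, higher in 6 of 6 mice), and it passed at 0.65 once mouse was a block (adjusted p = 0.0403).

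Among the targets, Hey1 was at 0.927, 1.66, 1.08, 0.478, 1.10, and 0.492 CPM in the livers in the order of the mice, and at 2.05, 1.78, 2.62, 2.30, 2.57, and 3.72 CPM in their tumors. The groups did not overlap, but T-HCC663 was only slightly above its own liver. The fitted log2 fold change of Hey1 was 1.39 (SE 0.35, edgeR quasi-likelihood test, adjusted p = 0.0252, higher in 6 of 6 mice). It held in the fit with mouse as block (1.46, adjusted p = 0.0445) and was lost in 2 of the 12 fits that left out a library, those without the liver of the T-HCC662 mouse and without T-HCC941.

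Hes1, the target with the highest level, was at 15.5, 44.5, 14.8, 8.93, 59.5, and 14.0 CPM in the livers and at 14.7, 28.2, 47.1, 32.9, 49.6, and 24.8 CPM in the tumors. The livers of the T-HCC663 and TCi-HCC981 mice stood apart from the other 4 livers, and no tumor exceeded the highest liver. The log2 fold change of Hes1 was 0.33 (SE 0.46, edgeR quasi-likelihood test, adjusted p = 0.697, higher in 3 of 6 mice). Heyl was at 1.50, 2.93, 0.231, 3.03, 1.60, and 1.08 CPM in the livers and at 0.223, 0.477, 2.73, 5.86, 2.36, and 4.41 CPM in the tumors. Both Ctnnb1-mutated tumors were below their own livers and the other 4 tumors above theirs. The fitted log2 fold change of Heyl over all tumors was 0.63 (SE 0.71, adjusted p = 0.619).

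**Figure D2:**
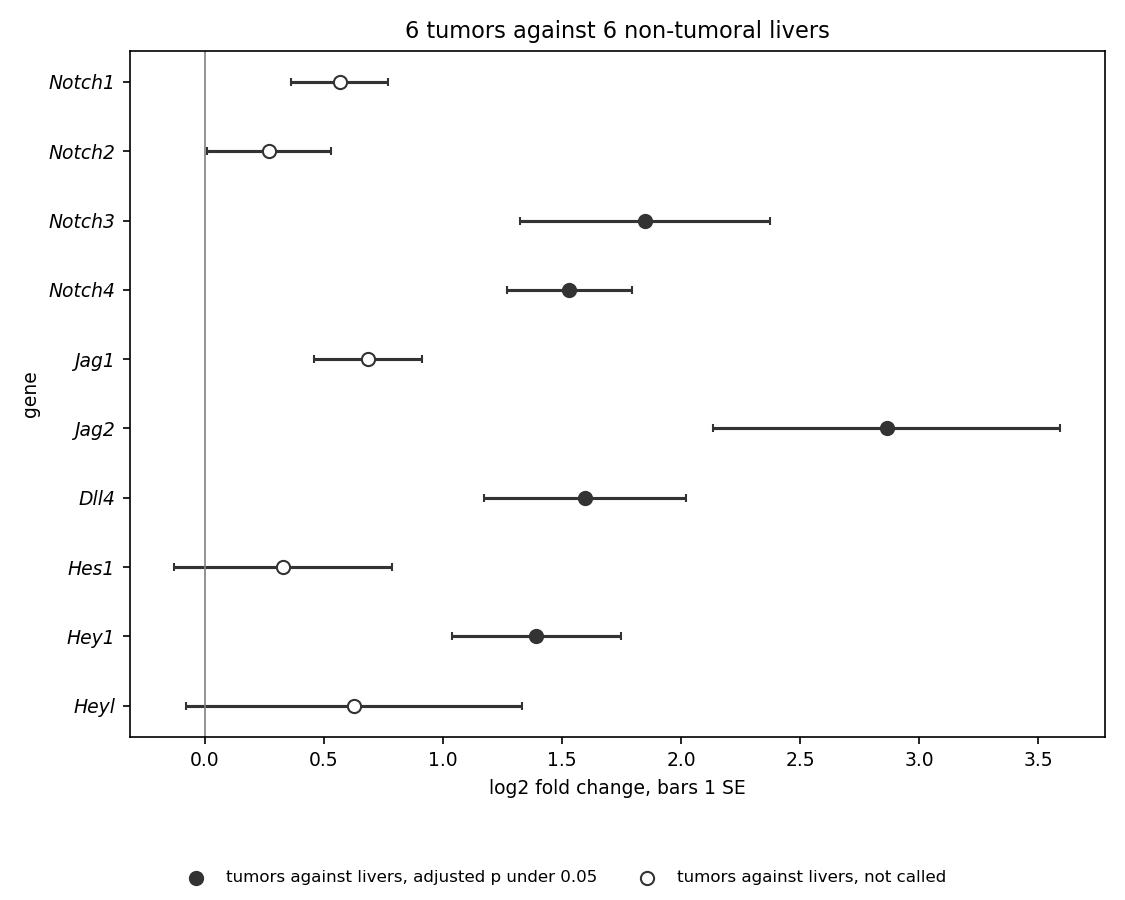
Log2 fold change (horizontal axis, bars 1 SE) of each gene between 6 tumors and 6 non-tumoral livers by the edgeR quasi-likelihood test. Filled points are the 5 genes with an adjusted p under 0.05, from 1.39 for Hey1 to 2.86 for Jag2.

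Per kilobase of exon, Hes1 was the most abundant of the 10 genes in the livers (17.8 ± 14.1 CPM per kb, SD, n = 6), followed by Notch2 (4.15 ± 0.886), Notch1 (2.87 ± 0.496), Dll4 (1.15 ± 0.663), Jag1 (1.07 ± 0.173), Notch4 (0.752 ± 0.180), Hey1 (0.394 ± 0.182), Heyl (0.381 ± 0.239), Notch3 (0.227 ± 0.129), and Jag2 (0.0811 ± 0.0808). The livers did not overlap between Hes1 and Notch2 or between Notch1 and Dll4, and all other neighbors in this order overlapped. In the tumors, Hes1 (22.4 ± 9.14 CPM per kb), Notch2 (5.00 ± 1.86), Notch1 (4.24 ± 1.34), and Dll4 (3.48 ± 1.51) kept the first 4 places. Notch4 followed (2.17 ± 0.744), ahead of Jag1 (1.71 ± 0.483), and Heyl was last (0.590 ± 0.484).

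Tumor by tumor, the difference in log2(CPM + 0.5) from the liver of the same mouse varied among the genes and among the tumors. It was above 0 for all 10 genes in T-HCC941, T-HCA992, and TCi-HCA984, with medians of 1.76, 1.25, and 1.64. In TCi-HCC981 it was above 0 for 9 of 10 genes (median 0.71), the exception being Hes1. In T-HCC662 it was above 0 for 6 of 10 genes (median 0.74), and in T-HCC663 for 4 of 10 (median -0.34). Over all genes tested, the median of this difference lay between -0.03 and 0.01 in every tumor, and the SD of the median over the 10 genes between the 6 livers was 0.45. Against the mean of the 6 livers in place of its own liver, the median in T-HCC663 was 0.38, and the liver of this mouse was the highest of the 6 for Dll4, Jag2, and Hey1.

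**Figure D3:**
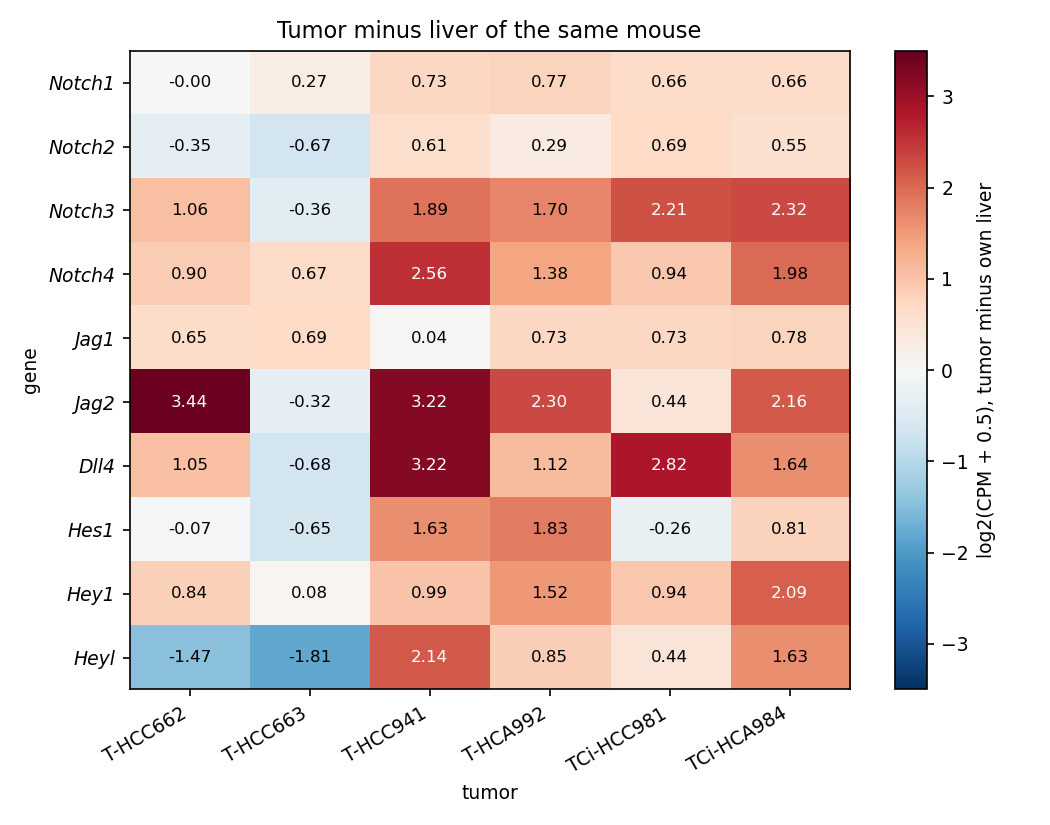
Difference in log2(CPM + 0.5) between each tumor (columns) and the non-tumoral liver of the same mouse for each gene (rows), red above 0 and blue below 0, with the value in each cell. T-HCC941 holds 3.22 for Dll4 and for Jag2 and only 0.04 for Jag1, and T-HCC663 holds the lowest value, -1.81 for Heyl.

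Which gene differed most within a mouse depended in part on the pseudocount, because Jag2 was at or near 0 in several livers. At 0.5 CPM, Jag2 led in T-HCC662 (3.44) and in T-HCA992 (2.30), Dll4 in TCi-HCC981 (2.82), and Jag1 in T-HCC663 (0.69), and these 4 were also first at 0.1 and at 1 CPM. The size of the value for T-HCC662 is set by the pseudocount, being 5.66 at 0.1 CPM and 2.57 at 1 CPM, since its liver had no Jag2 read. In T-HCC941 Dll4 and Jag2 were level at 0.5 CPM (both 3.22), Jag2 led at 0.1 CPM (4.81 against 3.48), and Dll4 led at 1 CPM (2.97). In TCi-HCA984 Notch3 led at 0.5 and 1 CPM (2.32 and 2.11) and Jag2 at 0.1 CPM (2.86). Jag2 was thus first in 2 of 6 tumors at 0.5 and 1 CPM and in 4 of 6 at 0.1 CPM. No test was made within a mouse, because each mouse gave 1 tumor and 1 liver.

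Within p21+/Tert mice, 1 of the 10 genes was called in tumors against livers, beside 986 of 15182 genes (6.49%). It was Notch4, with a log2 fold change of 1.48 (SE 0.35, edgeR quasi-likelihood test, adjusted p = 0.0305), and the call was lost in the fit with mouse as block (1.44, adjusted p = 0.0601) and in 6 of the 12 fits that left out a library, each of which had left out a p21+/Tert library. Within p21+/TertCi mice none of the 10 genes was called, beside 0 of 15182 (0%). At an unadjusted p under 0.05, edgeR counted 1618 genes there, among them Notch3 (2.64, SE 0.96), Notch4 (1.61, SE 0.49), Dll4 (2.35, SE 0.76), and Hey1 (1.97, SE 0.65), and DESeq2 called 366 genes and none of the 10.

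The difference between the genotypes in the tumor effect was called by edgeR for no gene (0 of 15182, 0%), with 556 genes and none of the 10 at an unadjusted p under 0.05, and for 15 genes and none of the 10 by DESeq2. For Notch4 this difference was 0.13 (SE 0.59) on the log2 scale, and for Dll4 1.10 (SE 0.89), and the SE over the 10 genes ranged from 0.46 to 1.60, with 2 p21+/TertCi tumors and livers. Between p21+/TertCi and p21+/Tert livers no gene was called by edgeR (0 of 15182, 0%), with 756 genes and none of the 10 at an unadjusted p under 0.05, and 39 genes and none of the 10 were called by DESeq2.

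By driver class, the Ctnnb1-mutated tumors had lower Notch2 and Heyl than the other 4 tumors. These were 2 of the 10 genes, beside 1895 of 15182 genes called in either direction (12.5%), and the fitted difference was below 0 for 9 of the 10 genes, with a median of -0.75 against 0.00 over all genes. The log2 difference was -1.21 for Notch2 (SE 0.24, edgeR quasi-likelihood test, adjusted p = 0.0113) and -3.34 for Heyl (SE 0.87, adjusted p = 0.0314). Notch3 was at -1.93 (SE 0.59, adjusted p = 0.0532) and Notch1 at -0.71 (SE 0.25, adjusted p = 0.0870). Notch4 (-0.66, SE 0.36), Dll4 (-1.24, SE 0.57), Hes1 (-0.80, SE 0.68), Hey1 (-0.54, SE 0.54), Jag1 (0.11, SE 0.28), and Jag2 (-0.13, SE 1.04) were not called.

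The levels of Notch2 in T-HCC662 and T-HCC663 (24.7 and 31.2 CPM) were less than the lowest of the other tumors (60.3 CPM), and those of Heyl (0.223 and 0.477 CPM) were less than the lowest of the others (2.36 CPM). In the fit with mouse as block, which compares the changes from the own livers, Notch2 was at -1.05 (adjusted p = 0.0658) and Heyl at -4.25 (adjusted p = 0.0677), and 441 genes were called in place of 1895. Neither was called without T-HCC662 (-1.06 and -2.91), and Heyl was also not called without T-HCC663, T-HCA992, TCi-HCC981, or TCi-HCA984.

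Between the Egfr- or Hras-mutated tumors and the tumors with neither mutation edgeR called no gene (0 of 15182, 0%). At an unadjusted p under 0.05, there were 1331 genes, among them Jag1 (-0.86, SE 0.33, adjusted p = 0.537), and DESeq2 called 99 genes and none of the 10. Jag1 was at 5.08 and 8.52 CPM in T-HCC941 and TCi-HCC981 and at 11.5 and 12.9 CPM in T-HCA992 and TCi-HCA984.

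Each class was also compared with the 6 livers, which these comparisons share, so they are not independent of each other. In the Ctnnb1 class none of the 10 genes was called, beside 1245 of 15182 genes (8.2%), with 5 of the 10 at an unadjusted p under 0.05 and 3 called by DESeq2. Notch4 (1.04, SE 0.32, adjusted p = 0.0683), Jag1 (0.70, SE 0.26), and Jag2 (2.76, SE 0.93) had values above 0, and Notch2 (-0.65, SE 0.23) and Heyl (-2.29, SE 0.81) below 0. The Jag2 value rested on T-HCC662 and was 0.94 without it, T-HCC663 being within the range of the livers, and that of Notch4 was 0.67 without T-HCC662.

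In the Egfr or Hras class 4 of the 10 genes were higher than in the livers and none was lower, beside 2762 of 15182 genes (18.2%). They were Notch1 (0.71, SE 0.22, edgeR quasi-likelihood test, adjusted p = 0.0475), Notch3 (1.67, SE 0.48, adjusted p = 0.0318), Notch4 (1.60, SE 0.31, adjusted p = 0.00543), and Dll4 (2.10, SE 0.47, adjusted p = 0.0108). In the fit with mouse as block, Notch3 (2.50), Notch4 (1.83), and Dll4 (3.30) remained called and Notch1 did not (adjusted p = 0.0548). Of the 12 fits that left out a library, the call held in 4 for Notch1, 9 for Notch3, and 11 each for Notch4 and Dll4. Without T-HCC941 none was called, and Notch4 then stood at 1.04. Jag2 was not called (2.74) and stood at 1.10 without T-HCC941, TCi-HCC981 being within the range of the livers.

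In the class with neither mutation 4 of the 10 genes were higher and none was lower, beside 1230 of 15182 genes (8.1%). They were Notch1 (0.80, SE 0.22, edgeR quasi-likelihood test, adjusted p = 0.0494), Notch3 (2.67, SE 0.46, adjusted p = 0.00611), Notch4 (1.81, SE 0.31, adjusted p = 0.00567), and Jag1 (1.03, SE 0.26, adjusted p = 0.0326). In the fit with mouse as block none was called, at adjusted p of 0.103, 0.0940, 0.0972, and 0.234. Of the 12 fits that left out a library, the call held in 2 for Notch1, 11 for Notch3, 12 for Notch4, and 7 for Jag1. Without T-HCA992 only Notch4 was called, and Notch1 then stood at 0.34.

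**Figure D4:**
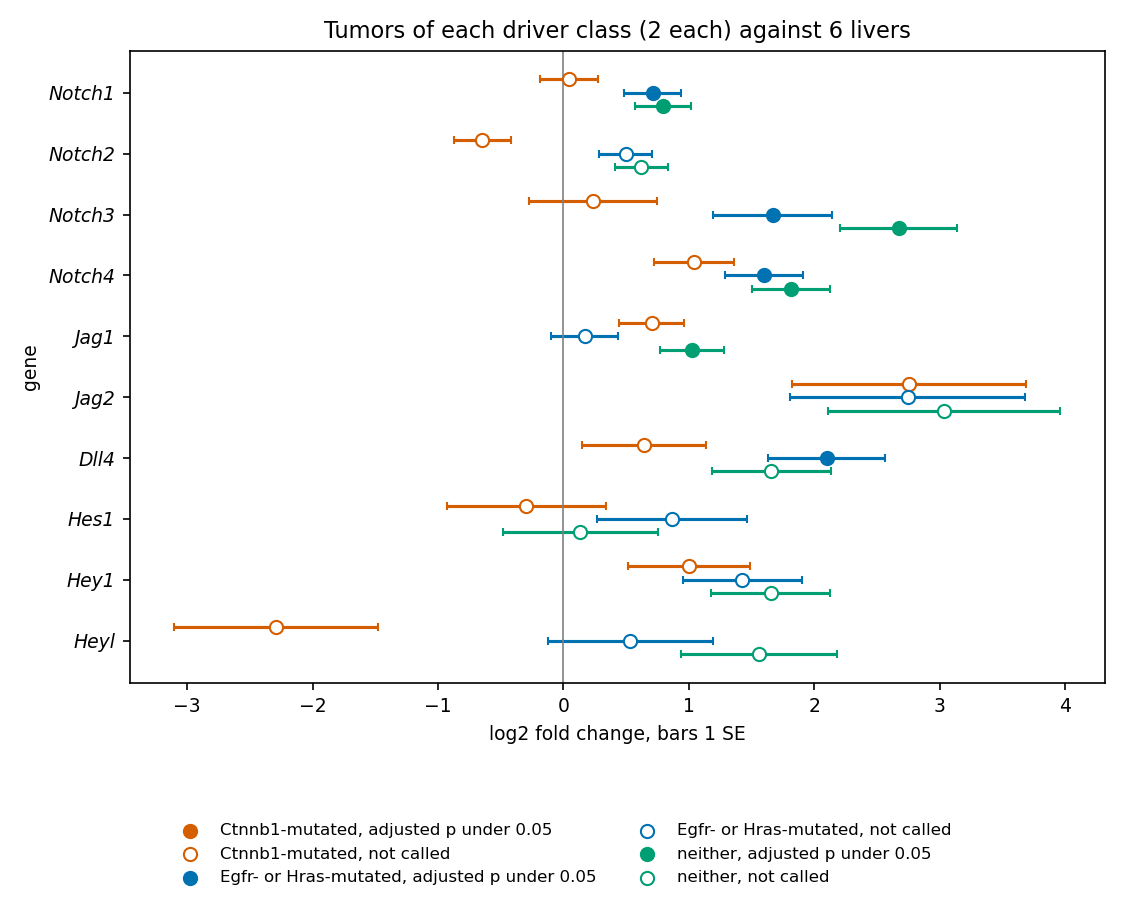
Log2 fold change (horizontal axis, bars 1 SE) of each gene between the 2 tumors of a driver class and the 6 non-tumoral livers, with filled points at an adjusted p under 0.05. The Ctnnb1 class stands apart at Notch2 (-0.65) and Heyl (-2.29), and Jag2 is called in none of the 3 classes, its values in the Ctnnb1 and the Egfr or Hras class resting on 1 tumor each.

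Of 59 other genes of the pathway, 51 were tested in tumors against livers, of which 6 were higher and 1 was lower (13.7% called, against 10.7% of all genes), with a median log2 fold change of 0.15. Among genes of endocytosis and turnover, 3 of 12 were higher and 1 was lower. They were Neurl1a (5.23, SE 0.70, edgeR quasi-likelihood test, adjusted p = 0.00113) and Neurl1b (2.69, SE 0.63, adjusted p = 0.0164), which encode E3 ubiquitin ligases of the Neuralized family known to act on Notch ligands, Fbxw7 (0.70, SE 0.21, adjusted p = 0.0469), which marks the intracellular part of Notch for degradation, and Itch (-0.49, SE 0.15, adjusted p = 0.0499), a ubiquitin ligase of Notch. Neurl1a was at 0.154 to 1.47 CPM in the livers and at 4.54, 6.41, 57.5, 15.2, 22.6, and 24.3 CPM in the tumors in the order of the mice, so the groups did not overlap and the Ctnnb1-mutated tumors were the lowest tumors.

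Of the other targets, 2 of the 7 tested were higher, with a median of 1.20. They were Nrarp (1.56, SE 0.38, edgeR quasi-likelihood test, adjusted p = 0.0211), a target that encodes an inhibitor of Notch signaling, and the cyclin gene Ccnd1 (1.90, SE 0.32, adjusted p = 0.00361), which is also a target of β-catenin. Nrarp was at 1.14, 4.14, 1.54, 3.88, 1.52, and 1.67 CPM in the livers in the order of the mice and at 3.92, 4.51, 9.14, 9.43, 6.42, and 7.56 CPM in their tumors. It was higher in 6 of 6 tumors than in the own liver, with T-HCC663 closest to it. The targets Hes5 and Hey2 had at most 3 and 13 reads in any library.

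Of the 10 proteases and their cofactors that cut the receptors, 1 was higher, the γ-secretase subunit gene Aph1b (2.51, SE 0.71, edgeR quasi-likelihood test, adjusted p = 0.0393). Aph1b was at 0.787 to 4.21 CPM in the livers and at 0.401, 5.20, 14.1, 16.7, 27.6, and 6.24 CPM in the tumors in the order above, so T-HCC662 went the other way. Mouse Aph1b has a close copy, Aph1c, between which reads may have been divided. Of 5 genes of receptor glycosylation, 8 of the nuclear complex, 8 corepressors, and 1 other ligand tested, none was called, with medians of 0.15, 0.03, -0.14, and 0.12.

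Between Ctnnb1-mutated and other tumors, 1 of the 53 pathway genes tested was higher and 5 were lower, with a median of -0.32. This was 11.3% of them, near the 12.5% over all genes. The 5 of smallest p were Sox9 (-3.49, SE 0.41, edgeR quasi-likelihood test, adjusted p = 0.000556), a target and a bile duct gene, the γ-secretase genes Aph1a (1.27, SE 0.27, adjusted p = 0.0153) and Ncstn (-1.12, SE 0.29, adjusted p = 0.0305), the coactivator gene Crebbp (-1.41, SE 0.37, adjusted p = 0.0314), and Neurl1a (-2.35, SE 0.63, adjusted p = 0.0340). Rbpj was the fifth lower gene (-0.84, SE 0.25, adjusted p = 0.0455). Sox9 was at 2.40 and 2.99 CPM in T-HCC662 and T-HCC663, below the range of the livers (7.15 to 14.8 CPM), and at 21.8 to 56.3 CPM in the other tumors, above it. Against the livers, 3 of the 53 pathway genes were higher and 1 was lower in the Ctnnb1 class, 7 and 2 in the Egfr or Hras class, and 4 and 1 in the class with neither mutation. These shares of 7.55%, 17%, and 9.43% were near the 8.2%, 18.2%, and 8.1% called over all genes.

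Among the marker lists of cell types, the endothelial list had the most called genes. In tumors against livers, 5 of 14 endothelial markers were higher and none was lower (Pecam1, Tie1, Egfl7, Emcn, and Cd34, median of the list 0.58), with a summed level of 110 to 299 CPM in livers and 153 to 434 CPM in tumors. Of 11 stellate, mural, and fibroblast markers tested, none was called (median 0.50, summed level of the list 64.0 to 257 CPM and 38.1 to 384 CPM). Of 7 bile duct markers tested 1 was higher (median 0.15), of 8 hepatocyte markers 2 were lower (median -0.49), and of 7 macrophage and 5 lymphocyte markers tested none was called (medians 0.14 and 0.92). No marker of these lists was at 0 in all livers or in all tumors.

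Between Ctnnb1-mutated and other tumors, 4 of 12 stellate, mural, and fibroblast markers were lower (Pdgfrb, Pdgfra, Des, and Rgs5, median -2.07), as were 2 of 14 endothelial markers (Pecam1 and Kdr, median -1.15), 2 of 7 bile duct markers tested, and 2 of 8 hepatocyte markers. The summed endothelial level was 153 and 189 CPM in T-HCC662 and T-HCC663 and 292 to 434 CPM in the other tumors, and that of the stellate, mural, and fibroblast list was 38.1 and 86.2 CPM against 168 to 384 CPM. The liver of the T-HCC941 mouse, which had the lowest Notch4, Dll4, and Heyl of the 6 livers, also had the lowest mean endothelial and stellate levels among them. In T-HCC662 and T-HCC663 the mean of log2(CPM + 0.5) was below that of the own liver for the endothelial markers (-0.54 and -0.09). It was also below for the stellate, mural, and fibroblast markers (-0.85 and -0.79). Notch4 was above its level in the own liver by 0.90 and 0.67, and in T-HCC662 so were Notch3 (1.06) and Dll4 (1.05). The single endothelial markers went both ways, so their mean, which the scaling below uses, blends unlike changes. In T-HCC662 Pecam1 (0.63), Emcn (1.91), and Cd34 (3.12) were above the own liver, and Stab2 (-1.58), Lyve1 (-1.66), and Clec4g (-4.52) below it. In T-HCC663 Pecam1 (0.63) and Stab2 (0.80) were above it, and Kdr (-0.86) and Clec4g (-1.87) below it. The single stellate, mural, and fibroblast markers went both ways too, so their mean also blends unlike changes. In T-HCC662 Cspg4 (1.71) and Col1a1 (0.90) were above the own liver, and Dcn (-4.65) and Lrat (-2.83) below it. In T-HCC663 Col1a1 (1.70) and Col3a1 (0.52) were above it, and Dcn (-2.43) and Lrat (-2.13) below it. The part of endothelial, stellate, mural, and fibroblast cells in the results was not tested. The scaling to the 2 marker lists given next describes levels relative to those means only.

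**Figure D5:**
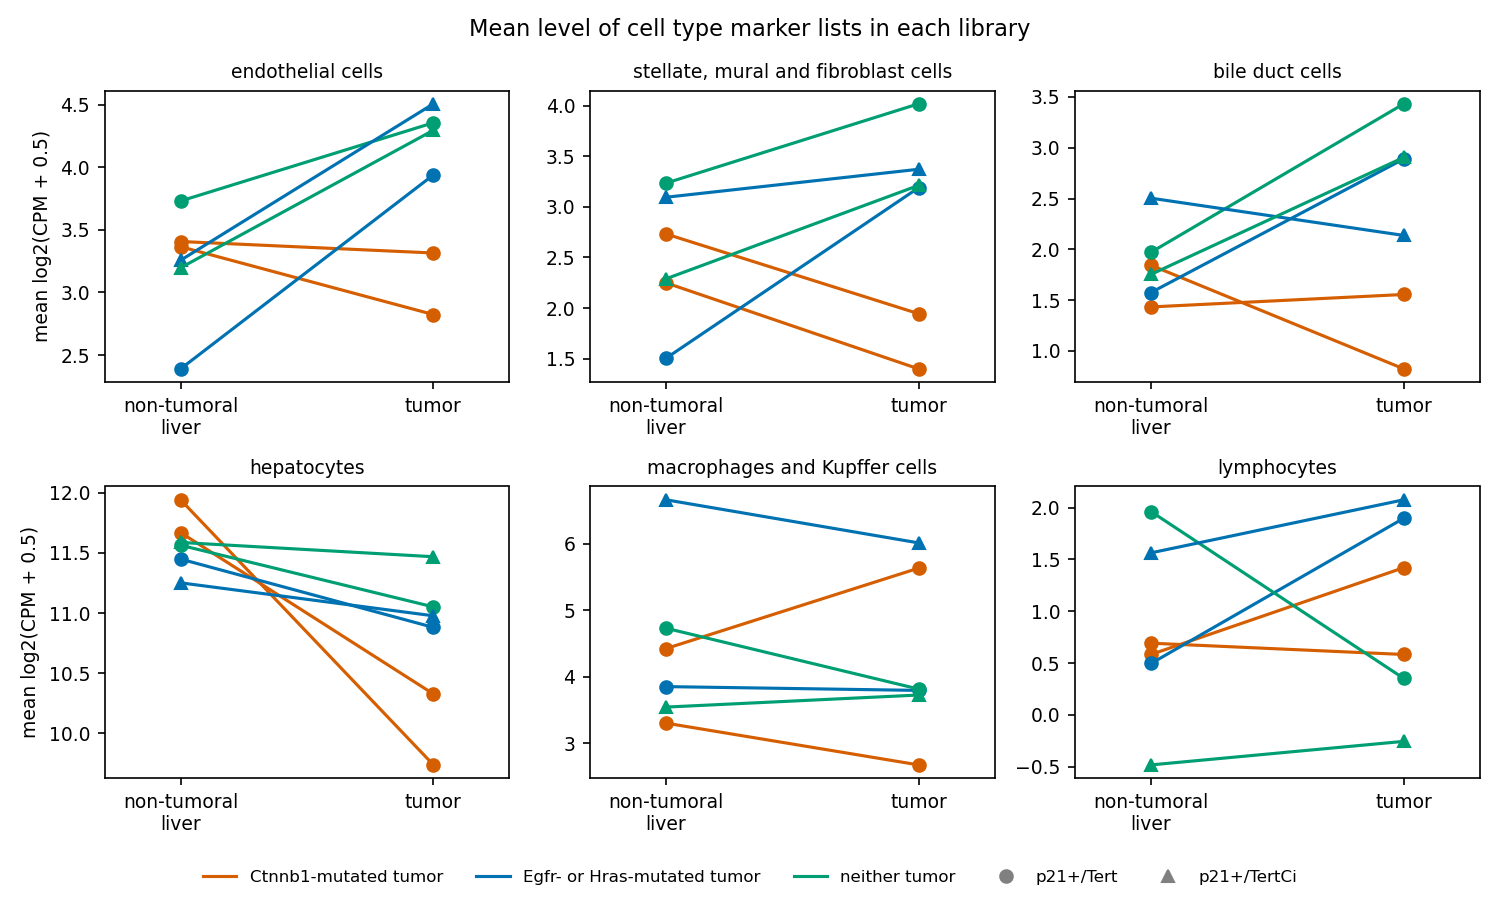
Mean log2(CPM + 0.5) over 6 lists of cell type markers (vertical axes, not from 0) in the non-tumoral liver and the tumor of each mouse, colored by driver class. Tumor minus liver, the endothelial mean differs by -0.54 and -0.09 in T-HCC662 and T-HCC663 and by 0.63 to 1.55 in the other 4 tumors.

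Relative to the mean log2(CPM + 0.5) of the endothelial markers in the same library, the 6 tumors exceeded their own livers by 0.75 for Notch4 and 0.82 for Notch3 (each higher in 5 of 6 mice, two-sided exact permutation within the pairs, p = 0.0625), by 0.88 for Dll4 (5 of 6 mice, exact p = 0.125), by 1.23 for Jag2 (4 of 6 mice, exact p = 0.125), and by 0.43 for Hey1 (exact p = 0.219). The smallest p that 6 pairs allow in this test is 0.0312. Relative to the stellate, mural, and fibroblast markers, Notch3 was higher by 1.13, Dll4 by 1.19, Jag2 by 1.54, and Notch4 by 1.06, each in 6 of 6 mice and at that smallest p by the same exact test, and Heyl differed by -0.04 (exact p = 0.938). Notch2 was lower by 0.46 relative to the endothelial markers (exact permutation p = 0.0625, higher in 1 of 6 mice). After Benjamini-Hochberg adjustment over the 20 tests of these 2 lists, the lowest adjusted p was 0.156, so none passed. With 6 pairs, passing would have needed most of the 20 tests at the smallest p, so this adjustment could hardly pass any gene and decides nothing. An exact permutation over all 12 libraries, which leaves the pairs out of account, gave for the endothelial markers p = 0.0216 for Notch4, 0.0411 for Notch3, 0.0195 for Dll4, and 0.0498 for Jag2, and its lowest adjusted p over both lists was 0.0618. This scaling and both tests were chosen after the data were seen.

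For each gene, the closest genes by the root mean square (RMS) difference of log2(CPM + 0.5), centred over the 12 libraries, were searched among 13379 genes with a mean of at least 1 CPM. For Notch3 they were Tcaf1 and Nrarp (0.42 and 0.43), for Notch4 Dcbld1 and Frmd6 (0.25 and 0.31), for Dll4 Podxl and Mecom (0.30 and 0.33), and for Heyl Adamts2 and Pdgfrb (0.31 and 0.40). Podxl is known from endothelial cells, and Pdgfrb is a receptor gene of mural cells. For Notch1 they were Kctd10 and Zfp217 (0.15 and 0.17), for Notch2 Ptprk and Gdpgp1 (0.15 and 0.18), for Jag1 Cast and Ybx3 (0.20 and 0.24), for Jag2 Klf4 and Unc5b (0.41 and 0.47), for Hes1 Dync2li1 and C130050O18Rik (0.37 and 0.38), and for Hey1 Gpi1 and Pxylp1 (0.30 and 0.35). The SD of the genes themselves over the libraries lay between 0.43 for Notch1 and 1.23 for Jag2, and these likenesses are descriptions without a test.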

How the data were processed

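Per the paper's methods, poly(A) libraries were read from both ends on a NovaSeq, and the authors mapped them with Subread to an mm10 genome that included mCherry. Gene counts came from featureCounts 1.6.4. The deposited values are raw counts, 1 file for each of 12 libraries. The authors corrected for the sequencing run, which is not given per sample, so no run term was fitted here and run and group cannot be told apart.

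Counts were scaled (TMM), filtered (filterByExpr), and tested with the quasi-likelihood test of edgeR 4.0.16 in R 4.3.3, with Benjamini-Hochberg adjustment over all genes and a threshold of 0.05. CPM are per 1000000 of the scaled library. The SE is the log2 fold change divided by the square root of F. Class and genotype contrasts used all 12 libraries, which share 1 estimate of the spread. Alternatives were DESeq2 1.42.0, RLE size factors, no filter, mouse as a block, only the compared libraries, leaving out a mouse or library, and pseudocounts of 0.1 and 1 CPM in place of 0.5. The main edgeR fits were also run on simulated counts that held no mouse effect. The fits with mouse as a block were not covered by this simulation. No 2 libraries were the same (at most 1.45% identical counts over 66 pairs). Exact permutation tests used SciPy 1.17.1. Exon lengths are the union of basic protein-coding GENCODE exons.

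Samples with the same number come from 1 mouse, so the numbers pair them, except for T-HCC662, whose liver has another number and was assigned by elimination. The deviation of each tumor from its group correlated with that of its own liver at r = 0.186, 0.0447, 0.0259, 0.439, 0.549, and 0.549 in the order of the mice. The last 2 values are 1 number, since with 2 mice in a group the deviations mirror each other. The own liver was the best match in 3 of 6 mice, and for T-HCC663 its r was below the median of the other livers (0.0660). The pairing thus rests on the shared animal number, and for T-HCC662 on the elimination alone.

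The genes, lists, tests, and alternatives were chosen with earlier results of these data known. Named genes were the 10 genes in every comparison, pathway genes called in tumors against livers, at most 5 of smallest p elsewhere, and the 2 closest genes per gene. Rbpj in the Ctnnb1 comparison, Hes5 and Hey2, and the named markers were added after their values were seen, as were the motifs and the scaling to markers.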

Additional observations from a re-analysis of the deposited data

Results flagged for a closer look

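Notch1 in the non-tumoral liver of the T-HCA992 mouse stood apart from the other 3 p21+/Tert livers, at 35.3 CPM against 25.2 to 25.9 CPM. Of 40 sets of 4 or 6 libraries examined in this way (10 genes in all livers, all tumors, and the livers and tumors of p21+/Tert mice), this was the only one with an outlying library. Chance alone flags about 1 in 20 such sets, so 1 of 40 is no more than chance gives.

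In the change from the liver of the same mouse, Notch2 and Heyl went down in both Ctnnb1-mutated tumors and up in each of the other 4 tumors. The mean of log2(CPM + 0.5), tumor minus liver, differed between these sets by -1.05 for Notch2 and by -2.91 for Heyl. The test of this difference in edgeR, with the mouse as a block, did not pass for either gene (adjusted p = 0.0658 for Notch2 and 0.0677 for Heyl). The mean log2(CPM + 0.5) of the stellate, mural, and fibroblast markers was also lower than in the own liver in T-HCC662 and T-HCC663 (-0.85 and -0.79). So was that of the endothelial markers (-0.54 and -0.09), but the single markers of both lists went both ways. The part of these cells in the result was not tested.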

How the results depend on the processing

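In tumors against livers, the direction of all 10 genes held under each of 17 alternatives. The 5 called genes became 3 without the T-HCC662 mouse and 2 to 6 with each library left out, the fits without the livers of the T-HCC662, T-HCC941, or TCi-HCA984 mice or without T-HCC941, T-HCA992, or TCi-HCC981 giving 2 or 3. The replicate block (mouse) also gave 5, but with Notch1 and Jag1 in place of Jag2 and Dll4. It called more genes over all genes, 2202 against 1476 without the block. Over all genes, DESeq2 called 2675 genes, and leaving out a library gave 863 to 1988. Within p21+/Tert mice, DESeq2 gave 2090 genes and 2 of the 10, the replicate block 0 of the 10, the fit without the T-HCC662 mouse gave 303 genes and 0 of the 10, and leaving out a library 240 to 1192 genes and 0 to 1 of the 10. Within p21+/TertCi mice, DESeq2 gave 366 genes, RLE size factors 1, no filter 2, and leaving out a library 0 to 7. The genotype difference and the liver comparison gave 15 and 39 genes by DESeq2.

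Between Ctnnb1-mutated and other tumors, DESeq2 gave 3078 genes, the replicate block 441 and 0 of the 10, the fit without the T-HCC662 mouse gave 330 and 0 of the 10, the compared libraries alone 839, and leaving out a library 437 to 2121 genes and 0 to 3 of the 10. Jag1 turned to -0.057 without T-HCC941 (range -0.057 to 0.32), and Jag2 to 0.65 without T-HCC663 and to 0.69 without T-HCC941 (range -1.94 to 0.69). Between the other classes, DESeq2 gave 99 genes, the fit without the T-HCC662 mouse gave 1, and leaving out a library 0 to 5. Against livers, the Ctnnb1 class had 2109 genes and 3 of the 10 by DESeq2, 245 genes without the T-HCC662 mouse, and 410 to 1329 genes and 0 to 1 of the 10 with a library left out, the 1 without the liver of the T-HCC941 mouse. The Egfr or Hras class had 1801 genes with the replicate block, 2 of the 10 without the T-HCC662 mouse, and 1079 to 3270 genes and 0 to 5 of the 10 with a library left out. The class with neither mutation had 2181 genes and 7 of the 10 by DESeq2, 237 and 0 with the replicate block, 665 and 2 without the T-HCC662 mouse, and 196 to 1463 genes and 1 to 5 of the 10 with a library left out. With the mean of 6 livers as reference, the median over the 10 genes turned to 0.38 in T-HCC663 and moved to 1.16 in T-HCC941. The replicate block changed no call of the 10 genes other than those given here and in the results. The causes were not tested. The depth limits Jag2, Hey1, Heyl, and Notch3 most, which rest on few reads in the livers.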

Other observations

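Dlk1, a noncanonical Notch ligand that is silent in the adult liver in general, was at 8.02 CPM in the liver of the TCi-HCA984 mouse and at 6.93 CPM in TCi-HCA984, against at most 0.359 CPM in the other 10 libraries. Both libraries came from the same mouse.

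Spp1, the gene of osteopontin and a bile duct marker, was at 38.3 to 113 CPM in the livers and ranged more widely in the tumors. It reached 1042 CPM in T-HCA992, 379 CPM in T-HCC941, and 263 CPM in TCi-HCA984, and was at 13.7, 30.2, and 4.16 CPM in T-HCC662, T-HCC663, and TCi-HCC981. The low value in TCi-HCC981 stood beside the highest Sox9 of all libraries (56.3 CPM).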
